A study of Mus musculus with 2 samples.

Results

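The mural cells of the dorsal root ganglion, the pericytes and smooth muscle cells on its blood vessels, were 239 of 17149 filtered single cells from mouse pups at postnatal day 4. The cells came from 2 libraries, 1 per genotype, made from ganglia of every axial level with the 10x 3′ v3.1 chemistry. The cKO library came from mice that carried Dhh-Cre and floxed Ptges3 alleles (Dhh CRE+, Ptges3 flox/flox), and the flox library from mice with the same floxed alleles and no Cre in their label (Ptges3 flox/flox). The Cre is driven by desert hedgehog sequence, which is active in Schwann cells and their precursors. The product of Ptges3, p23, assists the chaperone HSP90 and can also make prostaglandin E2 from prostaglandin H2. The ganglia were digested warm with collagenase, dispase and papain. The labels do not say how many animals went into a library, and with 1 library per genotype no difference between them has a replicate check, nor can genotype and library be told apart. Every interval below is a 95% interval for counting error alone.

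Mural cells wrap the endothelial tube. Pericytes sit on capillaries, share a basement membrane with the endothelium and are kept there by PDGF-B signalling through the receptor Pdgfrb, whereas smooth muscle cells surround arterioles and larger vessels and contract through smooth muscle actin (Acta2) and myosin (Myh11). Notch3 signalling maintains the smooth muscle fate, and ATP-sensitive potassium channels made of Kcnj8 and Abcc9 subunits set the membrane potential of both.

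Cells were chosen by the summed share of 5 genes, Rgs5, Notch3, Higd1b, Abcc9 and Kcnj8, in their UMIs (molecular barcodes that let each captured RNA be counted once). Cells with under 1000 UMIs, under 500 genes or over 15% mitochondrial UMIs were dropped. A mural cell then needed at least 0.15% of UMIs from the 5 genes with at least 2 of them detected, under 0.15% from 5 endothelial genes and under 0.4% from 4 neuronal genes. The rule gave 149 of 8435 cKO cells and 90 of 8714 flox cells. The 5 genes took a median of 0.512% of UMIs in cKO cells and 0.590% in flox cells. Just inside the threshold, from 0.15% to 0.2%, lay 18 cKO and 8 flox cells, and just outside it, from 0.1% to 0.15%, lay 15 cKO and 12 flox cells. The cells just outside were rich in Acta2, at 6008 CPM (UMIs of a gene scaled to the same total in each group) in cKO and 13108 CPM in flox cells. Of the members, 49, 52, 30 and 18 cKO cells and 15, 27, 31 and 17 flox cells had 2, 3, 4 and 5 of the genes detected.

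The libraries held 9703 cKO and 10014 flox barcodes, of which 23 were shared, none of them mural. Mural cells had a median of 2381 UMIs and 1250 genes in the cKO library, against 4598.5 UMIs and 2067 genes in the flox library, so low levels are less visible in single cKO cells. Summed over cells there were 436029 cKO and 562064 flox mural UMIs. RNA of other cell types was uneven. The 12 glial markers summed to 2193 CPM in cKO and 4601 CPM in flox mural cells, at 0% to 4.99% and 0% to 6.80% of a cell's UMIs, and the 12 macrophage markers summed to 18.3 CPM in cKO and 818 CPM in flox mural cells, with 8 of them at 0 in cKO. Glial genes reached 0.15% of UMIs in 4 cKO and 7 flox mural cells, fibroblast genes in 4 and 8, and macrophage genes in 0 and 3. Of 10 skeletal muscle markers 6 were at 0 in both libraries, Pax7, Myod1, Acta1 and Ckm among them, and of endothelial genes outside the rule Kdr had 1 cKO and 2 flox UMIs, Tek 0 in both and Emcn 34 and 49, although the rule's endothelial limit bears on these as well. The flox library also held more central nervous system RNA outside the mural cells, with 8 oligodendrocyte markers at 184 CPM in cKO and 1330 CPM in flox cells, and 8 astrocyte markers at 126 and 330.5 CPM.

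Mural genes that the rule did not use were also high in these cells. Ndufa4l2, a mitochondrial complex subunit known from pericytes, stood at 794 CPM in cKO and 843 CPM in flox mural cells, against 5.20 and 8.09 CPM in all other filtered cells. Pdgfrb, the receptor through which endothelial PDGF-B recruits pericytes, stood at 388 CPM in cKO and 347 CPM in flox mural cells, against 18.6 and 18.7 CPM elsewhere. Cspg4, the NG2 proteoglycan of the pericyte surface, stood at 218 CPM in cKO and 249 CPM in flox mural cells. In the cells with only 2 gate genes detected, Pdgfrb had 310 CPM (224 to 418) in cKO and 277 CPM (167 to 433) in flox cells, and Ndufa4l2 had 642 and 700 CPM. The 20 genes highest over all other cells by the lower of the 2 libraries were Rgs5, Ndufa4l2, Acta2, Myh11, Kcnj8, Notch3, Tagln, Gucy1a1, Tpm2, Rrad, Higd1b, Vtn, Myl9, Gucy1b1, Mylk, Abcc9, Apold1, Tinagl1, Pde3a and Mfge8. They join the gate genes with contractile genes, with both subunits of the soluble guanylate cyclase that senses nitric oxide (Gucy1a1, Gucy1b1) and with Pde3a, a phosphodiesterase that breaks down cyclic AMP. Since the cells were chosen by correlated genes, these levels are a description and not a test.

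**Figure D1:**
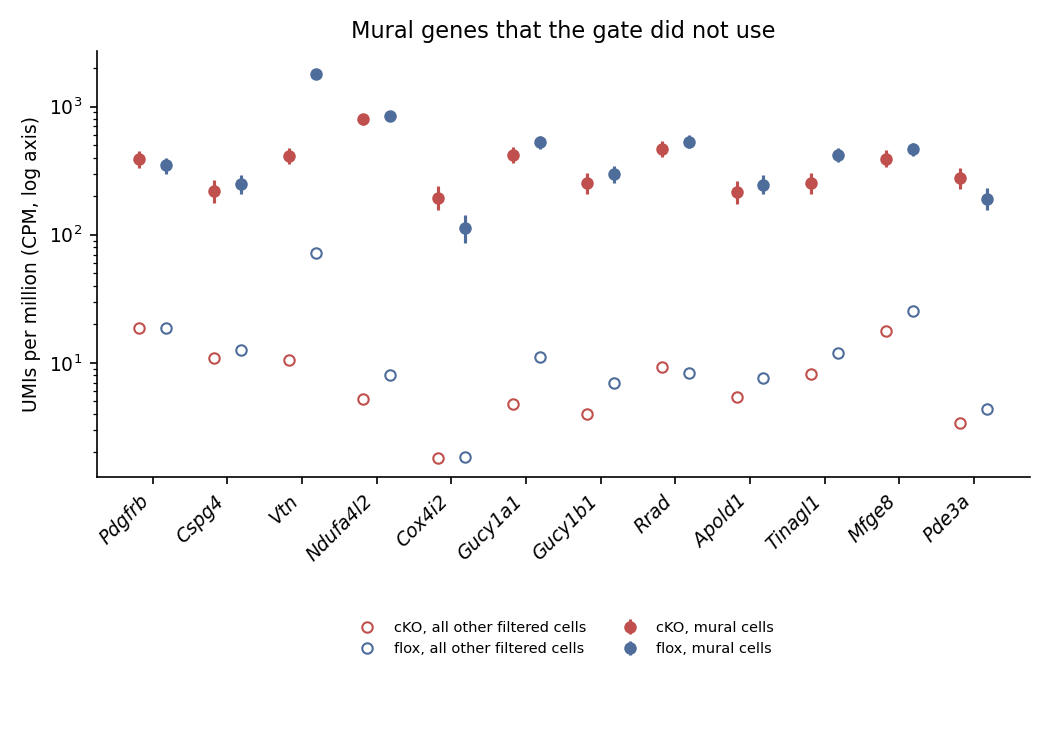
Level in CPM (log axis) of 12 genes outside the gate in the cKO library (red) and the flox library (blue); filled points are the summed mural cells with exact 95% Poisson intervals, open points all other filtered cells. Mural cells lie above the other cells for each gene in both libraries, with Pdgfrb at 388 CPM in cKO and 347 CPM in flox mural cells.

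Among the gate genes, Rgs5, a regulator of G-protein signalling, stood at 3699 CPM in cKO and 3647 CPM in flox mural cells. Notch3 stood at 436 and 411 CPM, and Higd1b, a mitochondrial protein of pericytes, at 216 and 286 CPM. Of the potassium channel subunits, Kcnj8, the pore, stood at 344 CPM in cKO and 491 CPM in flox cells, and Abcc9, its sulfonylurea receptor, at 440 CPM in cKO and 165 CPM in flox cells. Both lie on GRCm38 chromosome 6 (Kcnj8 at 142564837 to 142571614 and Abcc9 at 142587862 to 142702315, both on the reverse strand), with 16247 bases and 1 annotated gene between them. These values chose the cells and are given as a description.

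Mural cells made up 1.77% (exact Clopper-Pearson interval 1.496 to 2.07) of filtered cKO cells and 1.03% (0.831 to 1.27) of filtered flox cells, a log2 ratio of 0.77 (0.39 to 1.17). Without the cells that held transporter UMIs known from brain pericytes, described below, the shares were 1.71% in cKO and 0.585% in flox and the log2 ratio 1.54. These cells left the mural count only, and all 8435 cKO and 8714 flox filtered cells stayed in the denominator. Their number also depends on depth, with 5 cKO and 39 flox cells, or 3 and 14 at equal depth. These shares are therefore not corrected shares. The endothelial gate held 153 cells in each library, which gave 0.974 mural cells per endothelial cell in cKO and 0.588 in flox.

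Acta2 and Myh11 together spread the cells over a wide range. They took 0.5% of UMIs or more in 16 of 149 cKO cells (10.7%, 6.26 to 16.9) and in 29 of 90 flox cells (32.2%, 22.8 to 42.9). Between 0.1% and 0.5% lay 18 cKO cells (12.1%) and 18 flox cells (20.0%), and below 0.1% lay 115 cKO cells (77.2%) and 43 flox cells (47.8%). Neither gene was detected in 82 cKO and 26 flox cells, and the highest cell reached 1.29% in cKO and 3.66% in flox. With each cell thinned to 1000 UMIs the highest range held 12.8% of cKO and 32.2% of flox cells, so among the chosen cells the gap remained at equal depth. The gate was applied before thinning, and how depth bears on which cells passed it was not tested. The ranges are parts of one distribution and not cell types: 19 cKO and 9 flox cells lay from 0.05% to 0.15%, and 5 cKO and 7 flox cells from 0.4% to 0.6%. Requiring 3 gate genes left 1.00% of cKO cells in the highest range. The 49 cKO cells with 2 detected carried 3289 CPM of Acta2, against 738 CPM in those with 3 and 243 CPM in those with 4 or 5. In flox cells the same groups carried 7798, 8351 and 6000 CPM, so this steep fall of Acta2 was seen in the cKO library. Myh11 stood at 974, 234 and 125 CPM in the cKO groups and at 933, 1000 and 260 CPM in the flox groups. It was thus lowest with 4 or 5 detected in both libraries. A further 24 cKO and 41 flox cells reached 0.5% without passing the gate. They carried 10287 CPM of Tagln in cKO and 12528 CPM in flox, and 3 cKO and 4 flox cells among them had no gate gene detected.

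**Figure D2:**
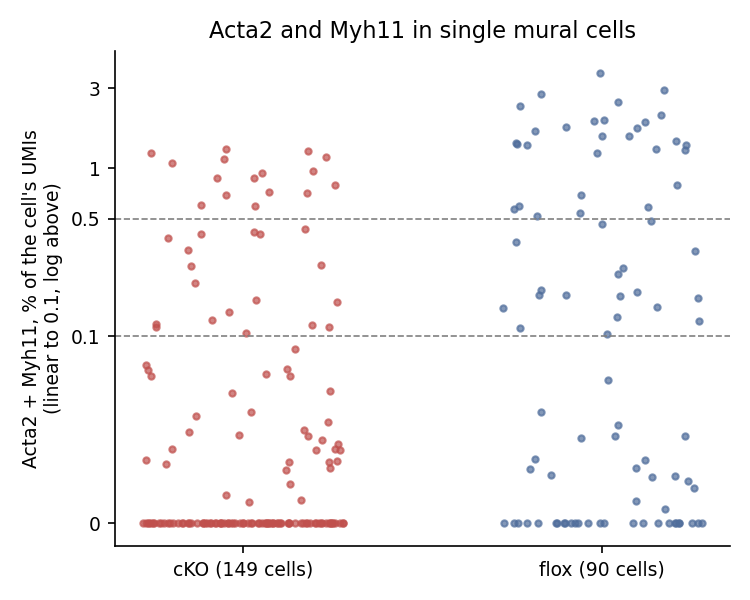
Share of Acta2 plus Myh11 in the UMIs of each mural cell, for 149 cKO cells (left, red) and 90 flox cells (right, blue); the axis is linear to 0.1% and logarithmic above, and dashed lines mark 0.1% and 0.5%. At or above the upper line lie 16 cKO and 29 flox cells.

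Genes other than Acta2 and Myh11 were ordered along the range within the flox library, by the summed CPM of cells at 0.5% or more over cells below 0.1%, and their values were then read in the cKO library, which had not been used to choose them. A gene counted as higher or lower when its ratio was at least 0.5 on the log2 scale and its exact interval left out 0, and was measured with at least 50 UMIs. Of 1140 genes measured in cKO cells, 9.47% were higher and 10.3% lower at the high end, and of 1507 measured in flox cells 15.5% were higher and 12.7% lower. Of the 15 genes highest in flox, 10 were measured in cKO, where 8 were higher and 1 lower. Of the 15 lowest in flox, Kcnj8 and Abcc9 are gate genes, and of the other 13, 9 were measured in cKO, where 6 were lower and 1 higher. These counts are a description, since cells ordered by Acta2 and Myh11 were already ordered by genes that vary with them.

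At the high end stood further contractile genes. Tagln, the actin-binding protein transgelin, had 5456 CPM at the high end and 110 CPM at the low end in cKO cells (log2 ratio 5.64, 5.12 to 6.20), and 9291 and 84.0 CPM in flox cells (6.79, 6.11 to 7.57). Myl9, a regulatory myosin light chain, had 2971 and 399 CPM in cKO (2.90) and 5893 and 929 CPM in flox (2.67). Tpm2 and Tpm1, tropomyosins, were higher by 3.01 and 1.89 in cKO and by 2.41 and 2.28 in flox. Cavin3, a caveolar coat protein, was higher by 2.30 in cKO and 2.86 in flox, and Eln, the elastin of arterial walls, by 5.12 and 4.59. Of 12 measured contractile genes other than Acta2 and Myh11, 10 were higher and 0 lower in cKO, and of 14 in flox 13 were higher and 1, the synuclein gene Sncg, lower (-0.76).

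The 15 lowest in flox were of several kinds, among them the histone genes Hist1h1c and Hist1h2bc, the lactate dehydrogenase Ldhb, Iigp1 and Marcks. The pericyte identity list split along the range, with 1 higher and 5 lower of 13 measured in cKO (median -0.33) and 3 higher and 4 lower of 15 in flox (median -0.38), and Mcam, an adhesion molecule, was higher at the high end in both (1.13 and 1.06). Abcc9 had 72.0 CPM at the high end and 585 CPM at the low end in cKO (-3.02) and 8.47 and 390 CPM in flox (-5.53), and Kcnj8 54.0 and 449 CPM in cKO (-3.05) and 203 and 870 CPM in flox (-2.10). Both are gate genes, so cells with little of them needed others to pass, and their values are a description. Outside the gate, Cygb, the globin cytoglobin, was lower at the high end by log2 ratios of -3.62 in cKO and -2.68 in flox. Art3, an ADP-ribosyltransferase family protein, was lower at -3.02 and -2.83, and Nrp1, a semaphorin and VEGF coreceptor, at -1.61 and -1.78. Pdgfrb, not among the 15, was also lower at the high end, with 180 and 478 CPM in cKO (-1.41, -2.50 to -0.49) and 212 and 469 CPM in flox (-1.15, -1.67 to -0.64).

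Some genes ran opposite ways in the libraries. Vtn, vitronectin, a matrix protein secreted by pericytes in brain, had 72.0 CPM at the high end and 532 CPM at the low end in cKO cells (-2.88, -4.78 to -1.50, from 4 and 160 UMIs) but 2398 and 1181 CPM in flox cells (1.02, 0.80 to 1.25). Hspb1, a small heat shock protein, had 558 and 1090 CPM in cKO (-0.97) and 1123 and 198 CPM in flox (2.51). Igfbp5, an insulin-like growth factor binding protein, had 1927 and 1349 CPM in cKO (0.51) and 309 and 865 CPM in flox (-1.48). The difference between the libraries was not tested.

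**Figure D3:**
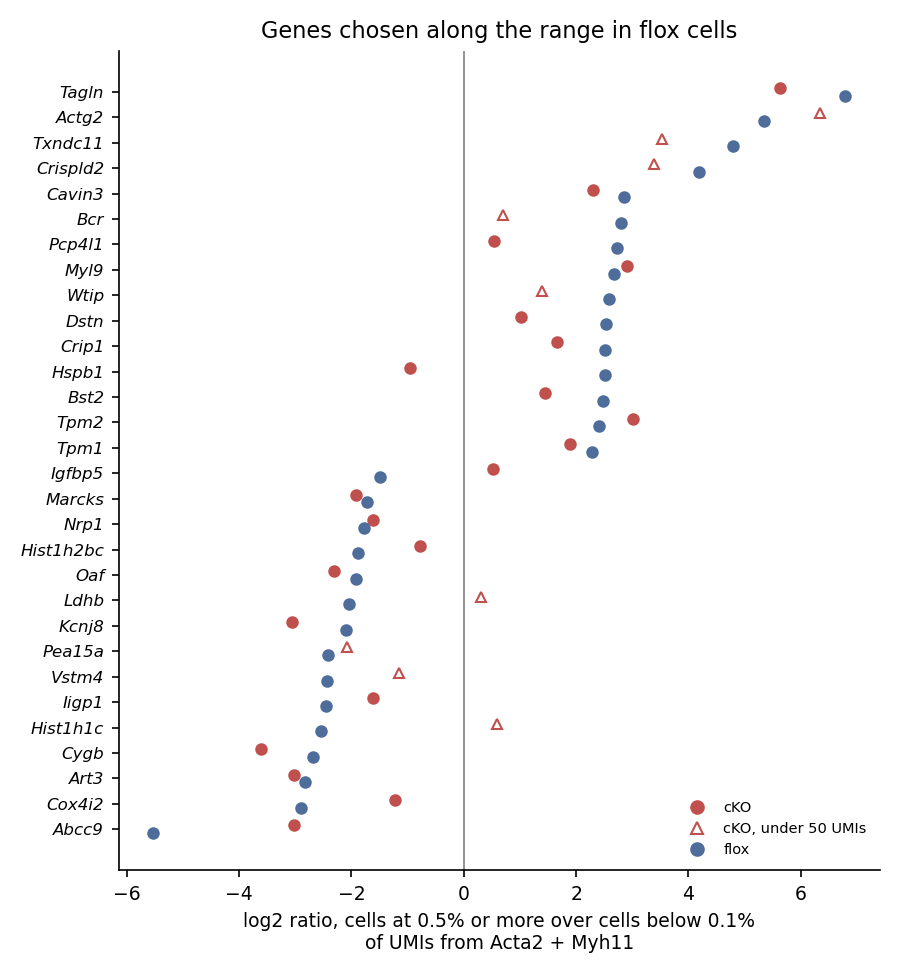
Log2 ratio of summed CPM, cells at 0.5% or more over cells below 0.1% of UMIs from Acta2 plus Myh11, for the 15 highest and 15 lowest genes chosen in the flox library (blue) and the same genes in the cKO library (red; open triangles had under 50 cKO UMIs). Hspb1 and Igfbp5 lie on opposite sides of 0 in the libraries, at -0.97 and 0.51 in cKO against 2.51 and -1.48 in flox.

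Between genotypes, Ptges3 itself was first read as a check of the labels. In the glial gate, which holds the Schwann lineage that the Cre targets, it stood at 125 CPM in cKO and 254 CPM in flox cells (-1.02, -1.13 to -0.92). The make-up of this gate differed between the libraries, with 8 oligodendrocyte markers at 895 CPM in cKO and 5322 CPM in flox. How that bears on the ratio was not tested. In mural cells Ptges3 stood at 332.5 CPM in cKO and 249 CPM in flox (0.42, 0.07 to 0.76), short of the 0.5 used as threshold, though 0.54 with TMM factors and 0.53 with DESeq2 size factors passed it. The other gates also leaned to the cKO library, at 0.62 in endothelial, 0.52 in neuronal, 0.30 in fibroblast and 0.16 in macrophage cells.

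Of 3303 genes measured in mural cells, 401 (12.1%) were higher and 585 (17.7%) lower in cKO, with a median log2 ratio of -0.11 over all of them. With TMM factors, which shift every ratio by 0.13, 548 were higher and 405 lower, and with DESeq2 size factors, which shift it by 0.11, 526 and 428, so the split between directions rests on the scaling. Changes are therefore best read against that median. Within cells below 0.1% Acta2 and Myh11 alone, 229 (13.2%) of 1737 genes were higher and 276 (15.9%) lower.

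Heat shock genes were higher in cKO mural cells. Of 15 measured members of the heat shock and dissociation stress list, 11 were higher, 0 lower and 4 neither, with a median of 1.31 beside -0.11 for all genes. Hspa1b, an inducible HSP70, stood at 438 CPM (378 to 505) in cKO and 53.4 CPM (36.0 to 76.2) in flox (3.04, 2.48 to 3.64). Its near copy Hspa1a stood at 1913 and 514 CPM (1.90), and how reads that match both copies were counted was not checked. Hsp90aa1, the inducible HSP90, stood at 2016 CPM in cKO and 600 CPM in flox (1.75), Dnajb1, an HSP40 partner of HSP70, at 505 and 160 CPM (1.66), and Hsph1, an HSP110 exchange factor, at 188 and 40.9 CPM (2.20). Among the low-range cells the median was 1.51, with 10 of 13 measured members higher and 0 lower, and outside mural cells the same genes leaned to the cKO library in endothelial cells, with Hspa1a at 555 CPM in cKO and 202 CPM in flox (1.46) and Hsp90aa1 at 1335 and 573 CPM (1.22). In all cells other than mural, Hspa1a stood at 335 CPM in cKO and 146 CPM in flox (1.20) and Hsp90aa1 at 1157 and 1081 CPM (0.10). The summed list leaned to cKO in endothelial (10178 CPM in cKO and 5555 CPM in flox), glial (9536 and 7037), fibroblast (7213 and 5273) and macrophage cells (7040 and 6421). Only neuronal cells leaned to flox (6134 and 6328). In cKO mural cells 9 of 13 members were lower at the high end of the range, and in flox mural cells 4 of 11. Of 14 measured genes of HSP90 and its cochaperones 2 were higher, the HSP90 genes Hsp90aa1 and Hsp90ab1 (0.71), and 3 were lower. Among the lower stood Cdc37, a kinase cochaperone, at 131 and 210 CPM (-0.68).

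Heat shock factor binds inverted repeats of the letters GAA, searched here as GAANNTTC or TTCNNGAA on both strands in the 250 bases before each start site (RefSeq, GRCm38.p6). The promoters of Hspa1a, Hspa1b and Hsph1, with the largest ratios of the listed genes that have one, are shown because their genes carry this result, with each match in capitals. They lie at chr17:34972157-34972406, chr17:34959239-34959488 and chr5:149636316-149636565, on the reverse strand.
Hspa1a: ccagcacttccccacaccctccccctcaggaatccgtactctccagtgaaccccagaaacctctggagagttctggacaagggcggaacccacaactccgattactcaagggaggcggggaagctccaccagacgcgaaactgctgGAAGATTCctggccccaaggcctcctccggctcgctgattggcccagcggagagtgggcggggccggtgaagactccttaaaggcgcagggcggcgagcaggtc
Hspa1b: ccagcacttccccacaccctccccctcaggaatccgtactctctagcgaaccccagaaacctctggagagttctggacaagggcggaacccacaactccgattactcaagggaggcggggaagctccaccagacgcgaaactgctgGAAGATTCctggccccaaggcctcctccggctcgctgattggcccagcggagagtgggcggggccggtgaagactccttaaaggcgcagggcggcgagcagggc
Hsph1: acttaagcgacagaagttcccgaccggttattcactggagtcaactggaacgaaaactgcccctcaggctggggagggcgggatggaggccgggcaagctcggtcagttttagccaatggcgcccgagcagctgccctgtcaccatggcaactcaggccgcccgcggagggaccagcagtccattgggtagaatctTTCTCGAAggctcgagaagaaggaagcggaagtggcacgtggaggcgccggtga
The Hspa1a and Hspa1b stretches share 247 of 250 bases. Of the 16 list members 13 had a promoter and 8 held a match, 2 of these (Hspd1 and Hspe1) in overlapping stretches, beside 12.8% of all 32851 promoters. For a gene with several promoters the one with most matches was taken. The 12.8% counts every promoter singly, so these shares were not counted alike. A match is a string of letters and no evidence of binding.

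Contractile genes were lower in cKO mural cells. Of 19 measured members 13 were lower, 1 higher and 5 neither, with a median of -0.83. Acta2 stood at 1376 CPM in cKO and 6997 CPM in flox (-2.35, -2.47 to -2.22; -1.36, -1.51 to -1.21, without the transporter cells described below), Tagln at 1021 and 4314 CPM (-2.08), Myl9 at 812 and 3163 CPM (-1.96) and Actg2, smooth muscle gamma actin, at 36.7 and 270.4 CPM (-2.88, with most of its cKO UMIs in 1 cell). Myh11 stood at 431 and 587 CPM (-0.45), short of the threshold. Tesc, the calcium-binding tescalcin, was the one member higher, at 170 and 37.4 CPM (2.18). The share of cells in the highest range moves with these levels: within cells below 0.1% of Acta2 and Myh11 the median was -0.34, with 2 of 13 higher and 2 lower, and with the 3 ranges weighted equally it was -0.23. Tagln was at 0.38 and Tpm2 at 0.03 in the low range, whereas Myl9 stayed lower at -1.22. Actin genes and cofactor genes of the transcription factor SRF had 6 of 13 measured lower and 0 higher (median -0.53), Actb among them at 3208 and 6718 CPM (-1.07), but 2 higher and 3 lower of 10 in the low range (median 0.06).

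SRF binds the CArG box, searched here only in the exact form CCWWWWWWGG (W is A or T) on both strands. Myl9 holds it in the 250 bases before its start site (chr2:156775214-156775463, forward strand, RefSeq, GRCm38.p6), shown with the box in capitals because this gene stayed lower in the low range.
Myl9: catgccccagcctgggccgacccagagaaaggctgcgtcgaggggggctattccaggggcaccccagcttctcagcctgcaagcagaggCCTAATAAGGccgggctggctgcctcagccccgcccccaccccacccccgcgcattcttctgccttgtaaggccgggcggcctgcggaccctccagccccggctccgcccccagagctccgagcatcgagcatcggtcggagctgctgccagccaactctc
Of 24 contractile genes 19 had a promoter and 2 held an exact match, Myl6 and Myl9, beside 1.47% of all promoters searched. Here too the promoter with most matches was taken for each gene, so these shares were not counted alike. The stretch before the Acta2 start site held no exact match, which says only that this strict form is not there. It did hold ccctatatgg and ccttgtttgg, which depart from that form by a C or a G among the W letters. Such near forms were not searched in any promoter.

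Pericyte genes had members on both sides over all mural cells. Of 17 measured, 3 were higher and 4 lower, with a median of -0.09, and in the low range 0 were higher and 5 lower of 16 (median -0.16). Steap4, a metalloreductase, was higher at 225 CPM in cKO and 99.6 CPM in flox (1.17), and Cox4i2, a cytochrome oxidase subunit isoform of pericytes, at 195 and 112 CPM (0.80), though at -0.09 in the low range. Vtn was lower at 413 and 1811 CPM (-2.13) and Gja4, connexin 37, at 101 and 358 CPM (-1.83). Vtn moved with a set of 6 transporter genes known from brain pericytes, Atp13a5, Slc6a12, Slc6a13, Slc6a20a, Slc19a1 and Slc22a8, chosen after seeing the data. Any UMI of them was found in 5 of 149 cKO cells and 39 of 90 flox cells, or 3 and 14 cells at equal depth. The set rested mainly on Slc19a1, found in 3 cKO and 34 flox cells. Atp13a5 was found in 0 and 16 cells, Slc6a20a in 1 and 6, Slc6a13 in 0 and 2, Slc22a8 in 1 and 1, and Slc6a12 in 0 and 0. Vtn stood at 515 CPM in cKO and 2842 CPM in flox cells with such a UMI, and at 409 CPM in cKO and 671 CPM in flox cells without one, and of the 29 flox cells in the highest range 16 had one. Without all such cells the highest range held 11.1% of cKO and 25.5% of flox cells, the contractile median was -0.47, and the heat shock median 1.46. Of the single gene ratios recomputed without them, 88 lay within their main counting interval, 69 lay outside it with the same direction or no call, and 2 that had been called changed sign. The ratios became -0.71 for Vtn, -1.20 for Tagln, -1.31 for Myl9, -2.15 for Actg2 and 1.59 for Tesc. Among those that no longer counted as higher or lower were Steap4 (0.28), Cox4i2 (0.19), Mgp (0.15), Heyl (-0.58) and Jag1 (-0.47).

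Immediate early genes, the first genes transcribed after a stimulus, split. Of 22 measured, 4 were higher and 11 lower (median -0.51), and in the low range 7 were higher and 8 lower of 21 (median -0.29). Fos stood at 1172 CPM in cKO and 3453 CPM in flox (-1.56) and Klf2, a shear-responsive factor, at 351 and 1407 CPM (-2.004, or -1.07 without the transporter cells), both also lower in endothelial cells of the cKO library (-2.05 and -1.78). Nr4a2, an orphan nuclear receptor, was higher at 241 and 80.1 CPM (1.59) and Ier5 at 342 and 167 CPM (1.03). Interferon genes had 6 of 10 lower and 0 higher (median -0.57), among them Bst2, tetherin, at 174 and 959 CPM (-2.46) and Ifitm1 at 91.7 and 372 CPM (-2.02). Without the transporter cells their ratios were -1.57 and -0.69. Chemokine and inflammation genes had 7 of 13 lower and 0 higher (median -0.79), with Cxcl2 at 18.3 and 132 CPM (-2.84, or -3.49 without the transporter cells), Il6 at 25.2 and 114 CPM (-2.17) and Socs3, a cytokine signal inhibitor, at 167 and 747 CPM (-2.16), but in the low range 3 of 9 were higher and 3 lower (median 0.13). Macrophage RNA, given above, was also uneven between the libraries, and its part in these lists was not tested. Targets of the glucocorticoid receptor, a client of HSP90, had 5 of 10 higher and 0 lower (median 0.39), among them Klf9 at 333 and 146 CPM (1.19) and Cdkn1a, the cell cycle inhibitor p21, at 791 and 370 CPM (1.10). The summed list stood at 4692 CPM in cKO and 3510 CPM in flox mural cells. It also leaned to cKO in endothelial (3373 and 1855), fibroblast (2824 and 1672) and neuronal cells (815 and 676). It leaned to flox in glial (2440 and 2716) and macrophage cells (1992 and 2043), and over all filtered cells other than mural (1311 and 1401).

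**Figure D4:**
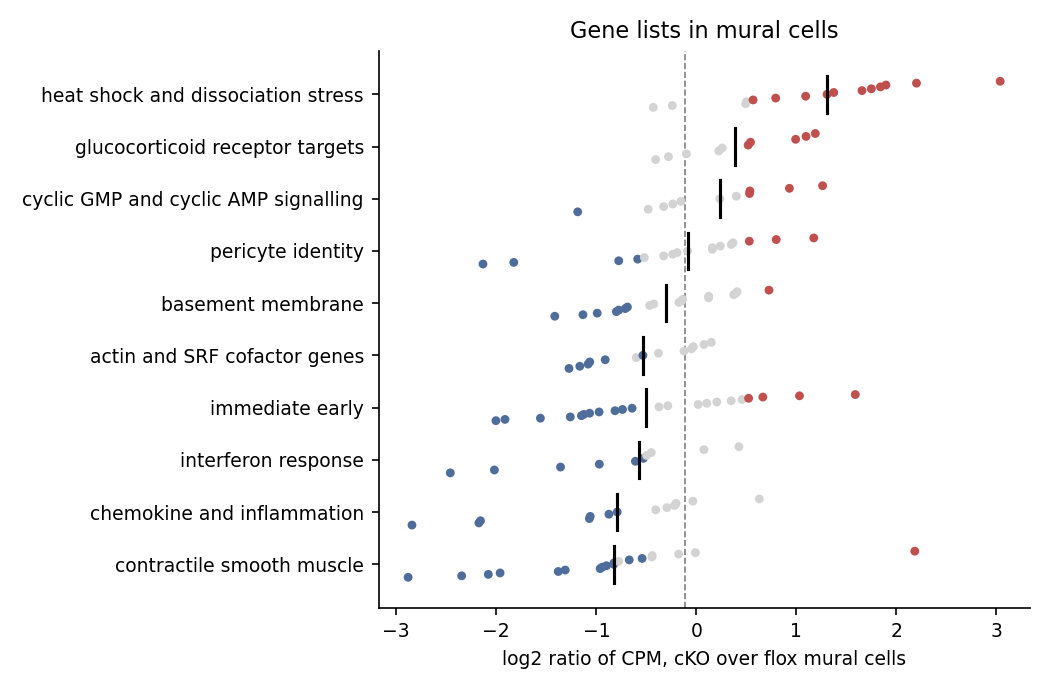
Log2 ratio of CPM, cKO over flox mural cells, for each measured member of 10 gene lists; red points were higher in cKO, blue points lower and grey points neither, black bars are list medians, and the dashed line is the median of all 3303 measured genes at -0.11. Heat shock genes lie to the right (median 1.31) and contractile genes to the left (median -0.83).

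Signals that act on vessel tone were measured unevenly. Of 29 vasoactive receptor genes 7 were measured, of which 1 was higher and 2 lower: Ednrb, an endothelin receptor, stood at 249.98 CPM in cKO and 117 CPM in flox (1.09), Ramp1, a subunit of the CGRP receptor, at 16.1 and 128 CPM (-3.00, or -1.66 without the transporter cells) and Adra2a, an adrenergic receptor, at 29.8 and 67.6 CPM (-1.18). Along the range, Ramp1 was higher at the high end by 5.76 in flox. In cKO it had 6 and 0 UMIs, which gave 3.44 with 3 UMIs put in place of the 0. Of 21 prostanoid genes 2 were measured: Tbxa2r, the thromboxane receptor, was lower at 18.3 and 74.7 CPM (-2.03), from 8 cKO and 42 flox UMIs, beside Ptges3. The prostaglandin E2 receptors Ptger1 to Ptger4 were too sparse to measure, with 1, 1, 0 and 6 UMIs in cKO and 1, 1, 2 and 5 in flox. Of 11 cyclic nucleotide genes 4 were higher and 1 lower (median 0.24), among them Crem, a cyclic AMP response modulator, at 213 and 89.0 CPM (1.26) and Prkar2b, a protein kinase A subunit, at 34.4 and 78.3 CPM (-1.19). Of 9 measured ion channel and calcium handling genes 2 were higher and 3 lower (median -0.18), a gate gene on each side. Ano1, a chloride channel of smooth muscle, was higher at 149 and 101 CPM (0.56), and Kcnk3, a background potassium channel, lower at 32.1 and 69.4 CPM (-1.11).

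Matrix genes had members on both sides. Of 18 measured basement membrane genes 7 were lower and 1, Lama2 (0.73), higher (median -0.30). Without the transporter cells Lama2 was at 0.53 (-0.12 to 1.21) and no longer counted as higher. Col18a1, which yields endostatin, stood at 204 CPM in cKO and 544 CPM in flox (-1.42, or -0.54 without the transporter cells). Col4a1, a collagen IV chain, stood at 3238 and 2500 CPM (0.37), short of the threshold. Of 17 interstitial matrix genes 3 were higher and 3 lower (median 0.15), with Mgp, an inhibitor of vessel calcification, at 2094 and 1322 CPM (0.66) and Eln at 154 and 482 CPM (-1.65, -0.93 in the low range). Without the transporter cells Mgp was at 0.15 and no longer counted as higher. Of 7 Notch pathway genes 0 were higher and 3 lower, Hes1, Heyl and Jag1, at 106, 91.7 and 75.7 CPM in cKO against 226, 174 and 180 CPM in flox, while in the low range 0 of 4 moved in either direction. Without the transporter cells Heyl (-0.58) and Jag1 (-0.47) no longer counted as lower. Of 13 mural transcription factors 1 was higher and 6 lower (median -0.42), against 2 and 2 of 8 in the low range (median 0.01). Among them Foxs1, a forkhead factor of mural cells, was lower at 55.0 and 196 CPM (-1.83).

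Of 11 genes of PDGF, angiopoietin and TGF-beta signalling 1 was higher and 2 were lower (median -0.43), with 0 of 4 called in the low range, of 25 nuclear respiratory chain genes 0 and 6 (-0.18), of 10 hypoxia and glycolysis genes 1 and 4 (-0.20), and of 13 cell cycle genes 2 and 2 (0.00096), beside 12.1% higher and 17.7% lower of all measured genes.

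The 12 genes with the highest ratios by interval bound were led by genes not known as mural. AY036118 stood at 3876 CPM in cKO and 35.6 CPM in flox mural cells (6.77) and Lars2 at 773 and 56.9 CPM (3.76), both annotated where mouse libraries are known to collect ribosomal RNA reads. AY036118 stood at 981 and 17.9 CPM and Lars2 at 268 and 38.3 CPM in all other cells, so both moved across the library. Malat1, a nuclear RNA, stood at 39055 and 16078 CPM (1.28). Of the other genes with the highest ratios, Dnajb9, a chaperone partner of the endoplasmic reticulum, stood at 220.2 and 39.1 CPM (2.49), Tob2, an antiproliferative protein, at 245 and 46.3 CPM (2.41), and Nufip2 and Rsrp1, at 252 and 71.2 CPM and 1030 and 294 CPM, had ratios of 1.83 and 1.81. At the other end stood Gper1, a G-protein coupled oestrogen receptor, at 32.1 and 199 CPM (-2.63, or -1.31 without the transporter cells), Cnn2, a calponin, at 50.5 and 283 CPM (-2.49) and Gadd45g at 222.5 and 838 CPM (-1.91, or -1.25 without them).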

How the data were processed

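Dissociated ganglion cells were captured in 1 library per genotype. The authors deposited filtered matrices of UMI counts per gene and barcode, used here as deposited. A header of the deposited matrices gives cellranger 6.1.2, but the submitters' processing notes give Cell Ranger 5.0.1, Scanpy and mm10. GENCODE vM21 (GRCm38) placed 32158 of 32285 gene identifiers.

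The members and the 34 gene lists were chosen with earlier results of these data known, and 4 list symbols matched no gene. UMIs were summed over the mural cells of a library and scaled by their total. Levels carry exact Poisson intervals, shares Clopper-Pearson intervals and ratios conditional binomial intervals, at 95%, all for counting error only. Where a group had 0 UMIs and the other more than 3, 3 UMIs over the group took their place. Such a ratio rests on that setting and leaves out the counting error of the other group. Genes were measured with at least 50 UMIs over both groups.

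Named genes were the 5 gate genes, Acta2, Myh11, Pdgfrb and Ptges3; the 12 highest and 12 lowest ratios by interval bound with at least 100 UMIs; up to 2 called members each way and the 3 most abundant of each list; 15 each way along the range; and the 20 highest over other cells. Ratio and range choices skipped predicted, sex-linked, haemoglobin, mitochondrial and ribosomal protein genes, and any gene whose CPM in another gate was over 5-fold higher. Genes named beyond this, among them Cspg4, Tbxa2r, the Ptger genes, Dcn, Col1a2 and the transporter genes, were chosen after their values were seen. Some genes and lists are not reported here.

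Scrublet's own threshold called 5 cKO and 0 flox cells, too few to have worked, so no doublets were removed in the main values. The ratio code was tested on simulated data. Alternatives varied cell filters, gate, doublets, scaling, depth, cell weights, low-count filters and range edges. Scaling factors alone came from edgeR 4.0.16 and DESeq2 1.42.0 in R 4.3.3. The rest ran in Python 3.11.15 with scanpy 1.11.5, pandas 2.3.3, scipy 1.17.1, numpy 2.4.6 and matplotlib 3.10.9.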

Additional observations from a re-analysis of the deposited data

Results flagged for a closer look

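Along the Acta2 and Myh11 range, 7 genes ran opposite ways in the libraries, each with an interval that left out 0, and the difference between the libraries was not tested. The log2 ratios of high over low cells were -2.88 in cKO and 1.02 in flox for Vtn, -0.97 and 2.51 for Hspb1, 0.51 and -1.48 for Igfbp5, -3.52 and 1.52 for Dcn, -2.13 and 0.52 for Col1a2, -0.79 and 0.70 for Cebpd, and 0.68 and -0.53 for Hmgb2. Dcn and Col1a2 are fibroblast genes, and the single cell richest in Dcn held 37.6% of its cKO and 51.1% of its flox mural UMIs. Ptges3 had a ratio of 0.42 in mural cells and -1.02 in the glial gate, also not tested against each other.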

How the results depend on the processing

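Of 233 values of the main results recomputed under alternatives, 205 stayed within their counting interval or within 1.5 times, 27 moved and 1 reversed, and of 2542 values of single genes 2091 stayed, 435 moved and 16 changed sign after being called. No cause was tested beyond what each setting builds in. The mural share of cKO cells was 1.46% with 2000 UMIs, and with the gate at 0.3% the shares were 1.35% in cKO and 0.815% in flox. With 3 gate genes the cKO share was 1.19% and its highest range 1.00%, and with edges of 0.05% and 1% that range held 4.03%. Genes higher and lower numbered 99 and 107 after thinning to 1000 UMIs, 232 and 352 with 100 UMIs per gene, 696 and 1005 with 1 UMI in each library, and 229 and 276 in low-range cells. A median log2 ratio of all measured genes came to 0.0181 with TMM, -0.000103 with DESeq2 size factors, -0.16 with the mean of each cell's CPM, -0.0574 thinned, -0.0735 in low-range cells and -0.0678 with totals without AY036118, Lars2 and Malat1, an alternative chosen after seeing the data. The contractile median was -0.34 in low-range cells and -0.23 with ranges weighted equally. The chemokine median was -0.0645 thinned and reversed to 0.13 in low-range cells. Without the cells holding central nervous system transporter UMIs, also chosen after seeing the data, the flox share was 0.585%, the log2 share ratio 1.54, 354 genes were lower and the median of all genes was -0.0824. In that setting all filtered cells stayed in the denominator of the shares.

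Single genes changed sign in low-range cells: Apod (1.16), Art3 (-0.0436), Bcr (0.63), Ccl11 (0.32), Col1a2 (0.19), Cox4i2 (-0.0869), Dstn (0.63), Tagln (0.38) and Tpm2 (0.0329). With ranges weighted equally Art3 (-0.0625) and Tpm2 (0.39) did so, thinned Id4 (0.27) and Lama2 (-0.11), without cells holding other gate genes Apod (0.49), and without the transporter cells Art3 (-0.0104) and Bcr (0.0219). A range from Myh11 alone gave no value, since 0 cells of either library reached 0.5%. No paired analysis was possible because each genotype has 1 library, and for the same reason no replicate could be left out.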
